A study of Danio rerio with 8 samples.

Results

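At 8 hpf, 49 of the 32520 genes in the deposited counts were read in only 1 genotype. A gene counted as such when all 4 libraries of one genotype held at most 3 counts of it and all 4 libraries of the other held at least 10. By this rule 30 genes, 0.0923% of the rows, were read only in *miR-34a-/-* embryos, and 19 genes, 0.0584%, only in wild-type embryos. The rule takes raw counts, and the libraries differed in depth. With counts scaled to the smallest library the numbers were 20 and 24, so the excess in *miR-34a-/-* did not hold. Because the counts of both genotypes selected the 49 genes, their differences between the genotypes are described and not tested. The 4 *miR-34a-/-* libraries came from maternal-zygotic embryos of a line bred from a single CRISPR/Cas9 deletion allele. The 4 wild-type libraries came from *casper* embryos, a line that lacks most of its pigment. The *miR-34a-/-* line was generated in the same background, but the paper states that it was kept as a separate homozygous line. The paper adds that the wild-type embryos were therefore not siblings of the mutants and may differ from them somewhat in genetics. Line and deletion cannot be told apart in these libraries, and their parts in the differences were not tested here. The paper did examine selected up-regulated genes, *adipoqa* among them, by quantitative PCR after injecting a miR-34a mimic. Every library was poly(A)-selected RNA from a pool of whole embryos at 8 hpf, so fewer cells that express a gene and less RNA of it per cell cannot be told apart.

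At 8 hpf the zebrafish embryo is a gastrula, in which germ layers form and cells move towards the dorsal axis. Kidney, fat, gonad, muscle, retina and blood have not yet formed, and many of the genes below are named for what they do in such tissues in adults. The mature miR-34a is a small RNA that lowers the stability or translation of messenger RNAs that it pairs with, and its gene is a target of p53. Several families met here, such as the MHC class I and dicp immune genes, are known in zebrafish for differing in gene content between individuals and lines, and the long arm of chromosome 4 is known for repeats and arrays of zinc finger genes.

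The libraries held between 8159574 and 15724724 counts in *miR-34a-/-* embryos and between 7132045 and 11191023 in wild-type embryos. A single count was worth between 0.0640 and 0.140 CPM, the count scaled to the normalized library size, and 3 counts, the floor used here, were worth at most 0.366 CPM in a *miR-34a-/-* library and 0.419 CPM in a wild-type library. Where a genotype had no count at all, the text gives the smallest fold that the floor allows. Where it had some, the ratio of summed counts, scaled to the library sizes, is given with an exact 95% interval, which covers counting error only. The rule selected the genes by the same counts, which the intervals do not allow for. The ratios may therefore be too large, and the intervals are descriptions and not tests. The smallest fold carries no error term and is not comparable with these ratios. The *mir34a* gene itself had 0 counts in all 8 libraries, as had *mir34b* and *mir34c*, so the counts do not check the genotype labels. All 14 gastrula markers examined, such as *tbxta*, *noto* and *sox32*, had at least 10 counts in every library, and 8 of them were called lower and 1 higher in *miR-34a-/-* embryos. Their summed level was 7696 to 8075 CPM in *miR-34a-/-* and 7731 to 8325 CPM in wild-type embryos. This sum does not show that the stages matched. The paper staged embryos by morphology and time of fertilization, but allows that the mutant may develop somewhat differently. A difference in stage between the genotypes was not tested. EdgeR's quasi-likelihood test called 3178 genes higher and 3102 lower in *miR-34a-/-* embryos among 13842 tested, which is 23.0% and 22.4%, or 45.4% in either direction. Of the 49 genes, 28 of those read only in *miR-34a-/-* and all 19 of those read only in wild-type passed the filter on low counts of that test, and all of these were called, which the rule itself brings about.

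The genes read only in *miR-34a-/-* embryos mostly had few reads. CPM are not scaled to gene length here, so values of different genes compare numbers of reads and not of transcripts. Their mean level in *miR-34a-/-* ranged from 1.1 to 30.5 CPM with a median of 2.00 CPM, whereas the median of all tested genes there was 13.6 CPM. The genes read only in wild-type ranged from 1.59 to 20.4 CPM there, with a median of 2.67 CPM against 13.8 CPM for all tested genes. Only 3 of the 49 genes exceeded 10 CPM, namely *spata6l*, ENSDARG00000096978 and zgc:136908. In 6 of the 30 genes no wild-type library had a single count, and in 3 of the 19 genes no *miR-34a-/-* library had one. The summed counts in the genotype without reads were at most 10 over the 4 wild-type libraries and at most 7 over the 4 *miR-34a-/-* libraries.

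**Figure D1:**
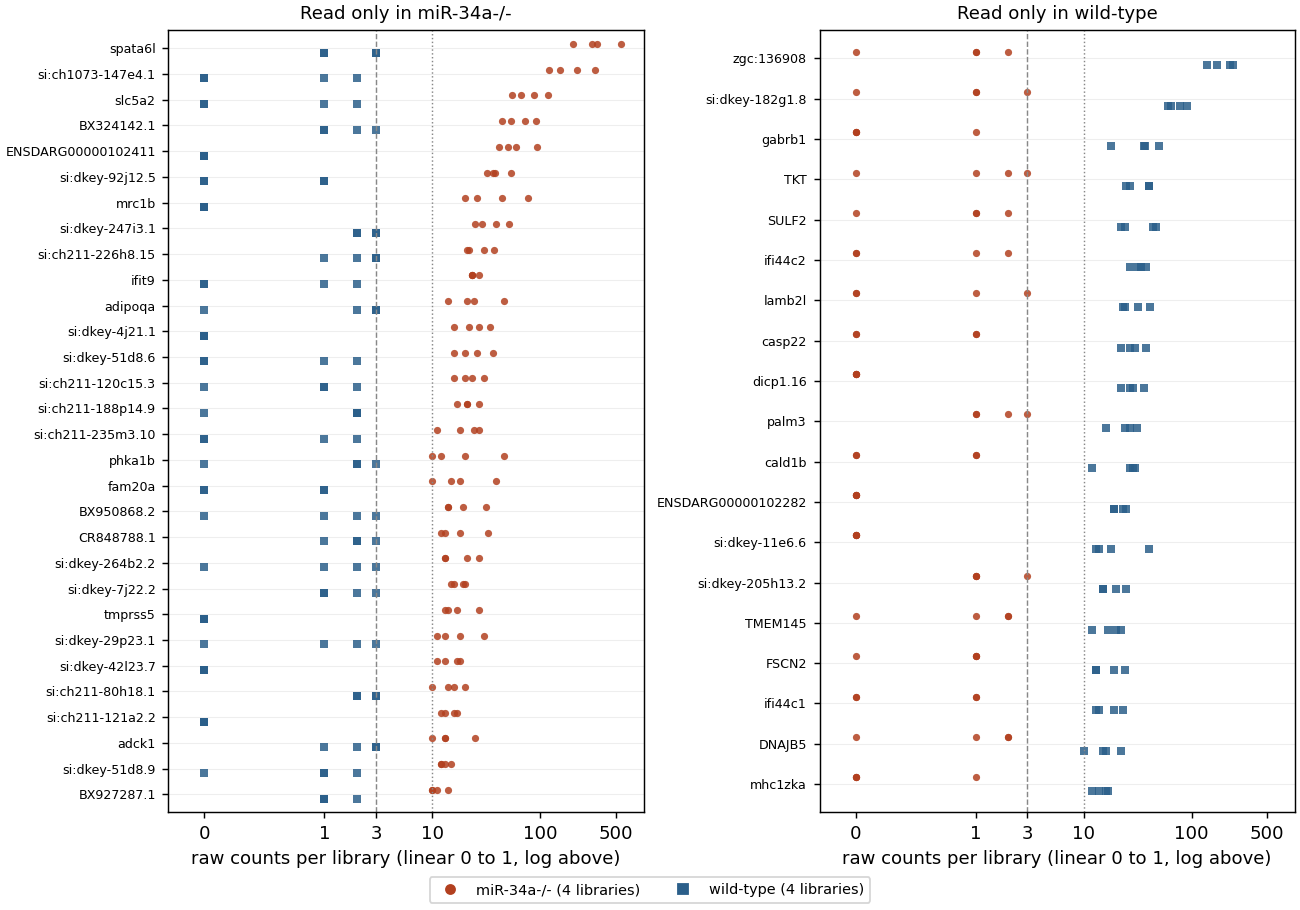
Raw counts of the 49 genes in each library, with the 30 genes read only in *miR-34a-/-* on the left and the 19 read only in wild-type on the right, sorted by level relative to the floor. Circles are the 4 *miR-34a-/-* libraries and squares the 4 wild-type libraries, on an axis that is linear up to 1 count and logarithmic above, and the dashed and dotted lines mark 3 and 10 counts. *spata6l*, with 201 to 559 counts in *miR-34a-/-* libraries, and zgc:136908, with 140 to 240 counts in wild-type libraries, were the best read of their direction. In wild-type libraries *spata6l* nonetheless reached the limit of 3 counts. ENSDARG00000096978 is shown by its clone name in the second row on the left.

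Of the 30 genes read only in *miR-34a-/-* embryos, 9 had a gene symbol and 21 only a clone name or an identifier. The best read was *spata6l* on chromosome 7, related to the sperm gene SPATA6, which in mice is needed to join the sperm head to the tail. It had 298, 335, 201 and 559 counts in *miR-34a-/-* libraries, against 1, 3, 3 and 1 in wild-type libraries. This was 30.5 ± 4.61 CPM (SD, n = 4) in *miR-34a-/-* and 0.200 ± 0.0856 CPM (SD, n = 4) in wild-type embryos, a 149-fold ratio of counts with an interval of 75.2 to 345. It drew more reads in *miR-34a-/-* than 65.9% of the tested genes, and of the 30 genes only it and ENSDARG00000096978 lay above the median gene. SPATA6 itself, on chromosome 8, did not pass the test, with 8, 14, 10 and 6 counts in *miR-34a-/-* and 4, 10, 17 and 8 in wild-type libraries (log2 fold change -0.24 ± 0.39 SE, adjusted p = 0.65).

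Among genes for transport and metabolism, *slc5a2* on chromosome 15 encodes a sodium and glucose cotransporter known in mammals from the kidney tubule. It had 66, 88, 54 and 117 counts in *miR-34a-/-* libraries, against 1, 0, 2 and 0 in wild-type libraries, a 92.5-fold ratio (interval 31.4 to 451). Of the 3 other SLC5 transporters tested, 1 was called higher, 1 lower and 1 was not called. The iodide transporter gene *slc5a5* was higher in *miR-34a-/-* embryos by edgeR's test, with 31, 18, 14 and 37 counts against 4, 8, 12 and 4 in wild-type (log2 fold change 1.60 ± 0.32 SE, adjusted p = 2.1e-04). SLC5A12 was lower (-0.45 ± 0.17 SE, adjusted p = 0.033 in edgeR, up to 0.13 over the alternatives), and SLC5A6 did not pass the test (-0.18 ± 0.17 SE, adjusted p = 0.42). The hormone gene *adipoqa* on chromosome 24 encodes adiponectin, which fat tissue secretes in mammals. It had 21, 24, 14 and 46 counts in *miR-34a-/-* and 0, 3, 2 and 3 in wild-type libraries, an 11.2-fold ratio (interval 5.48 to 26.6). The paper reports that quantitative PCR at the same stage also found *adipoqa* up-regulated in the mutants. It adds that the miR-34a mimic at least partly suppressed the rise of most genes so examined. Its main text does not say whether *adipoqa* was among those suppressed. The gene *phka1b* on chromosome 21 encodes a regulatory subunit of phosphorylase kinase, which starts glycogen breakdown. It had 12, 20, 10 and 46 counts in *miR-34a-/-* libraries, against 3, 2, 2 and 0 in wild-type libraries, so its lowest library sat exactly on the rule's limit. Its copy *phka1a* on chromosome 7 had 9, 11, 13 and 23 counts in *miR-34a-/-* and 5, 5, 6 and 6 in wild-type libraries, and was too low to be tested. The mitochondrial kinase-like gene *adck1* on chromosome 17 had 13, 13, 10 and 25 counts in *miR-34a-/-* and 1, 3, 2 and 3 in wild-type libraries, a 5.78-fold ratio (interval 2.86 to 13.3).

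A pair of immune genes were read only in *miR-34a-/-* embryos. The mannose receptor gene *mrc1b* on chromosome 2 encodes a C-type lectin of endothelium and macrophages that takes up glycoproteins. It had 20, 44, 26 and 76 counts in *miR-34a-/-* libraries and none in any wild-type library, which makes it at least 8.43-fold higher. Its paralog *mrc1a* on chromosome 7 was higher as well, with 12, 17, 10 and 14 counts against 1, 3, 5 and 8 in wild-type (log2 fold change 1.39 ± 0.43 SE, adjusted p = 0.0097 in edgeR, 0.0012 to 0.05 over the alternatives), although the genotypes overlapped in CPM. MRC2, the third gene of this family, did not pass the test (0.07 ± 0.24 SE, adjusted p = 0.83). The interferon-induced gene *ifit9* on chromosome 12 had 23, 23, 23 and 27 counts in *miR-34a-/-* libraries, against 0, 1, 2 and 0 in wild-type libraries, a 27.3-fold ratio (interval 9.07 to 135). Proteins of the IFIT family bind foreign RNA in mammals. Of the 7 other *ifit* genes, *ifit12* nearby had 9, 4, 1 and 3 counts in *miR-34a-/-* and none in wild-type libraries, and the only one that passed the filter on low counts was not called. The 3 macrophage markers found of the 4 listed summed to 0 to 0.122 CPM in *miR-34a-/-* and 0.176 to 0.566 CPM in wild-type embryos.

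The other 2 named genes of this direction encode a membrane protease and a protein of the secretory pathway. The protease gene *tmprss5* on chromosome 15 encodes a transmembrane serine protease known in mammals from the spinal cord, and its 14, 17, 13 and 27 counts in *miR-34a-/-* libraries stood against none in wild-type libraries, at least 3.77-fold higher. Of the 3 other genes of this kind tested, 1 was called higher and 2 lower. Among the latter, *tmprss15* had 4, 0, 0 and 1 counts in *miR-34a-/-* and 20, 26, 26 and 20 in wild-type libraries (log2 fold change -4.29 ± 0.48 SE, adjusted p = 3.5e-08). The gene *fam20a* on chromosome 12 encodes a secretory pathway pseudokinase that in mammals aids enamel formation, and it had 10, 18, 15 and 39 counts in *miR-34a-/-* and 1, 1, 0 and 0 in wild-type libraries, a 35.0-fold ratio (interval 9.38 to 294). The 2 neuron markers found of 4 listed summed to 0.704 to 1.36 CPM in *miR-34a-/-* and 1.04 to 2.51 CPM in wild-type embryos, and their part in these reads was not tested.

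The remaining 21 genes of this direction had no name that states a function. The best read was a clone-named gene on chromosome 3, ENSDARG00000096978, with 153, 216, 119 and 320 counts in *miR-34a-/-* and 1, 0, 2 and 0 in wild-type libraries, a 230-fold ratio (interval 78.4 to 1117). ENSDARG00000102411, also on chromosome 3, had 50, 59, 41 and 93 counts in *miR-34a-/-* and none in wild-type libraries, at least 12.9-fold higher and the largest such bound among the 9 genes with a genotype at 0. On chromosome 1, si:dkey-92j12.5 had 38, 32, 36 and 53 counts in *miR-34a-/-* and 0, 0, 1 and 1 in wild-type libraries. Among the *miR-34a-/-* libraries their highest CPM was 1.41, 1.19 and 1.51 times the lowest. The others with no wild-type count were si:dkey-4j21.1 on chromosome 4 (22, 27, 16 and 34 counts in *miR-34a-/-*), si:dkey-42l23.7 on chromosome 15 (18, 13, 11 and 17) and si:ch211-121a2.2 on chromosome 20 (16, 13, 12 and 17), at least 5.30-fold, 3.28-fold and 3.23-fold higher. The 7 further genes not placed on chromosome 4 were si:ch211-226h8.15, si:ch211-120c15.3, which could not be placed on any chromosome, si:ch211-188p14.9, si:ch211-235m3.10, CR848788.1, si:dkey-264b2.2 and si:ch211-80h18.1, with mean levels of 1.35 to 2.49 CPM in *miR-34a-/-* and 0.0725 to 0.268 CPM in wild-type embryos.

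Chromosome 4 held 9 of the 30 genes read only in *miR-34a-/-* embryos and none of the 19 read only in wild-type, although it holds 6.94% of the rows. All 9 carry clone names. BX324142.1 was the best read of them, with 72, 53, 44 and 91 counts in *miR-34a-/-* and 3, 1, 2 and 1 in wild-type libraries, a 31.7-fold ratio (interval 15.2 to 79.6). The first of the 9 along the chromosome, si:dkey-247i3.1, had 29, 39, 25 and 51 counts in *miR-34a-/-* and 2, 3, 2 and 3 in wild-type libraries. The others were BX950868.2, si:dkey-29p23.1, si:dkey-7j22.2, si:dkey-51d8.6, si:dkey-51d8.9, BX927287.1 and si:dkey-4j21.1. The 9 genes lie within 572 consecutive rows. Among the 86 other tested genes of that stretch, 51 were called higher and 21 lower, 59.3% and 24.4%, with a median log2 fold change of 0.77, where all tested genes had a median of 0.00. Zinc finger genes with znf, zbtb or zscan symbols made up 33 of these 86, of which 20 were called higher and 10 lower. Of the genes in the rows directly beside the 9, 6 were tested and all 6 were called higher. Within 5 rows, 12 were tested, of which 10 were called higher and 1 lower. The lower one was *znf1120*, 2 rows from si:dkey-247i3.1 (log2 fold change -1.48 ± 0.28 SE, adjusted p = 1.1e-04 in edgeR). Among the called neighbours were si:dkey-7j22.4, 2 rows from si:dkey-7j22.2, with 189, 233, 152 and 299 counts in *miR-34a-/-* and 12, 16, 30 and 22 in wild-type libraries (log2 fold change 3.21 ± 0.16 SE, adjusted p = 2.7e-15), and the zinc finger gene *znf1021*, 2 rows from si:dkey-51d8.9 (2.73 ± 0.14 SE, adjusted p = 6.3e-15). Near-identical copies are frequent in this stretch, and how reads that map to several copies were counted is not given in the sources used here, so the values of single genes there are uncertain.

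**Figure D2:**
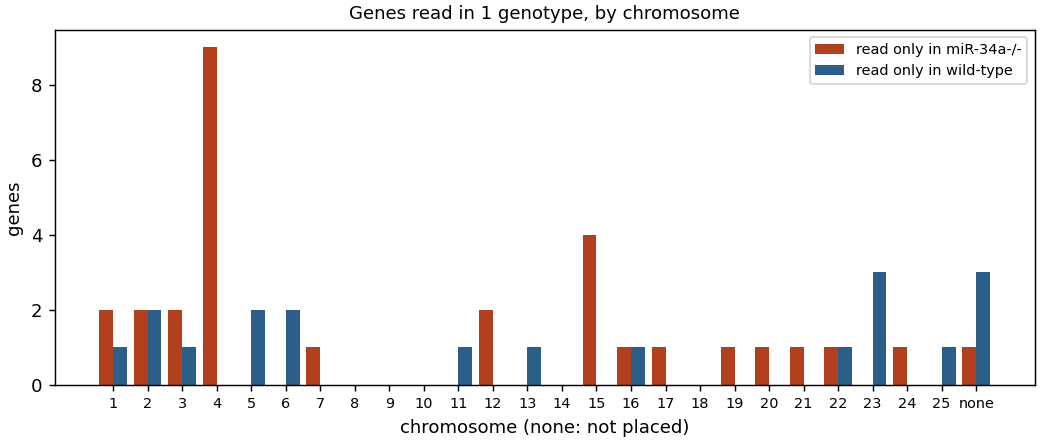
Number of genes read only in *miR-34a-/-* (left bar) and only in wild-type (right bar) on each chromosome, with the genes that could not be placed under none. Chromosome 4 holds 9 genes read only in *miR-34a-/-*, chromosome 15 holds 4, and chromosome 23 holds 3 read only in wild-type.

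The genes read only in wild-type embryos were better annotated, with 14 gene symbols among 19. The best read had no informative name. This was zgc:136908 on chromosome 1, with 2, 1, 0 and 1 counts in *miR-34a-/-* libraries and 171, 227, 240 and 140 in wild-type libraries. Its level was 0.0909 ± 0.0873 CPM (SD, n = 4) in *miR-34a-/-* and 20.4 ± 1.01 CPM (SD, n = 4) in wild-type embryos, 228-fold lower by the ratio of counts (interval 88.7 to 839), and its coefficient of variation over the wild-type libraries, 4.94%, was the lowest of the 49 genes in the genotype with reads. On chromosome 22, si:dkey-182g1.8 had 3, 1, 1 and 0 counts in *miR-34a-/-* and 90, 60, 78 and 64 in wild-type libraries, 68.4-fold lower (interval 29.0 to 212).

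Immune and cell death genes made up 5 of the 14. The genes *ifi44c1* and *ifi44c2*, named for an interferon-induced protein, are adjacent on chromosome 2. There *ifi44c2* had 2, 0, 0 and 1 counts in *miR-34a-/-* and 27, 38, 34 and 32 in wild-type libraries, and *ifi44c1* had 1, 0, 0 and 1 in *miR-34a-/-* and 14, 19, 23 and 13 in wild-type libraries. They were 51.2-fold (interval 17.1 to 251) and 40.4-fold (interval 10.8 to 340) lower in *miR-34a-/-* embryos, and as neighbours of one family they may share reads. The row before *ifi44c1*, *rabgap1l2*, moved the other way, with 2779, 3225, 2409 and 4904 counts in *miR-34a-/-* and 711, 1035, 836 and 633 in wild-type libraries (log2 fold change 1.81 ± 0.06 SE, adjusted p = 3.6e-19). Of the 12 other *ifi44* genes, 1 was tested and it was not called. The gene *casp22* on chromosome 5 belongs to the caspases, proteases of cell death and inflammation. It had 0, 1, 0 and 1 counts in *miR-34a-/-* and 27, 38, 30 and 22 in wild-type libraries, 68.5-fold lower (interval 18.6 to 573). None of the 8 other caspases tested was called lower and 3 were called higher, among them *casp20* (0.85 ± 0.13 SE, adjusted p = 5.8e-06) and *casp6b.1* (1.17 ± 0.23 SE, adjusted p = 1.3e-04).

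The remaining pair of immune genes lay together among the last rows, which could not be placed on a chromosome. One was *dicp1.16*, of a family of cell surface proteins with immunoglobulin domains known from fish, with no count in *miR-34a-/-* libraries and 29, 27, 36 and 22 counts in wild-type libraries, at least 8.25-fold lower. The other, 3 rows on, was *mhc1zka*, a gene of the Z lineage of MHC class I, the proteins that present peptides to T cells. It had 0, 0, 0 and 1 counts in *miR-34a-/-* and 17, 14, 16 and 12 in wild-type libraries. Between them lay a row named CCDC134, with 9, 1, 2 and 0 counts in *miR-34a-/-* and 170, 174, 196 and 140 in wild-type libraries, which missed the rule by 1 library and had the largest fall among the neighbours and family relatives that passed edgeR's test (log2 fold change -5.99 ± 0.29 SE, adjusted p = 1.3e-15). A second row with the name CCDC134, on chromosome 3 beside *mhc1zja*, had 0 counts in all 8 libraries.

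Other Z lineage genes went both ways. On chromosome 3, *mhc1zja* had 27, 25, 22 and 50 counts in *miR-34a-/-* and 4, 8, 6 and 6 in wild-type libraries and was higher in *miR-34a-/-* by edgeR's test (2.11 ± 0.29 SE, adjusted p = 1.2e-06). On chromosome 1, *mhc1zea* was higher (1.19 ± 0.28 SE, adjusted p = 0.0012) and *mhc1zba* lower (-0.66 ± 0.13 SE, adjusted p = 1.9e-04), while *mhc1zda*, too low to be tested, had 8, 14, 12 and 28 counts in *miR-34a-/-* and 0, 1, 0 and 1 in wild-type libraries. The remaining Z lineage genes, *mhc1zaa*, *mhc1zca* and *mhc1zfa*, were too low to be tested, and their genotypes overlapped in CPM. Over the broader list of immune receptor and cytokine genes, 18 of 87 tested genes besides *dicp1.16* and *mhc1zka* were called higher and 24 lower, 48.3% in all, close to the 45.4% of all tested genes. These genes are similar in sequence, so reads may have been assigned to the wrong copy.

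**Figure D3:**
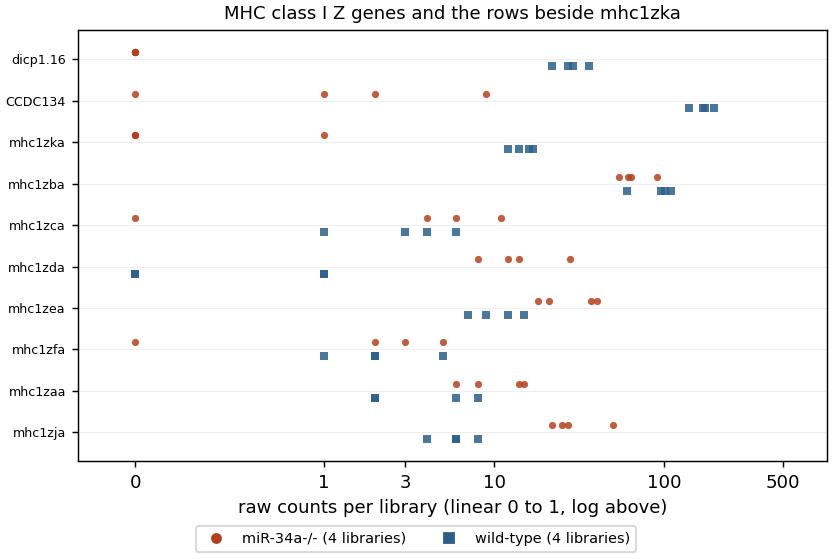
Raw counts in each library of *dicp1.16*, CCDC134 and *mhc1zka*, which lie within 4 rows, and of the other 7 genes of the MHC class I Z lineage. Circles are the 4 *miR-34a-/-* libraries and squares the 4 wild-type libraries, on an axis that is linear up to 1 count and logarithmic above. The first 3 rows are near 0 in *miR-34a-/-* libraries, while *mhc1zda* and *mhc1zja* have more counts in *miR-34a-/-* than in wild-type libraries.

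The genes of the extracellular matrix and its sugars lay on chromosome 23, which also carries *mir34a*. SULF2, listed in RefSeq as an older name of *sulf2b*, encodes a secreted sulfatase that trims heparan sulfate and thereby alters growth factor binding. It had 2, 1, 0 and 1 counts in *miR-34a-/-* and 22, 44, 47 and 24 in wild-type libraries, 40.1-fold lower (interval 15.3 to 149). Its relatives elsewhere were both called higher, with *sulf2a* on chromosome 11 at 15, 22, 12 and 24 counts in *miR-34a-/-* against 6, 7, 11 and 1 in wild-type libraries (1.31 ± 0.35 SE, adjusted p = 0.0028) and SULF1 on chromosome 24 (0.32 ± 0.07 SE, adjusted p = 5.8e-04). The laminin chain gene *lamb2l*, a component of basement membranes, had 3, 0, 0 and 1 counts in *miR-34a-/-* and 23, 41, 24 and 32 in wild-type libraries, 35.2-fold lower (interval 13.4 to 131). LAMB2, 2 rows away, was near the floor, with 2, 1, 2 and 3 counts in *miR-34a-/-* against 9, 6, 8 and 4 in wild-type libraries, and LAMA5 farther along was lower (-1.16 ± 0.11 SE, adjusted p = 1.1e-09). Of the 6 other laminin chains tested, LAMA5 included, 1 was called higher, *lama4* (0.36 ± 0.12 SE, adjusted p = 0.019 in edgeR, up to 0.092 over the alternatives), and 3 lower, and the other two did not pass the test. The third gene of chromosome 23, si:dkey-205h13.2, had 1, 3, 1 and 1 counts in *miR-34a-/-* and 15, 20, 25 and 15 in wild-type libraries.

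In the order of the rows, which follows the order of genes along the chromosome, SULF2 lay 211 rows and *lamb2l* 61 rows before *mir34a*, and si:dkey-205h13.2 lay 98 rows after it. No gene read only in *miR-34a-/-* lay on chromosome 23, which holds 3.35% of the rows. The 29 placed genes read only in *miR-34a-/-* lay on 14 of the 25 chromosomes, so other chromosomes held none either. Within 250 rows on either side of *mir34a*, 51 of 224 other tested genes were called higher and 58 lower, 22.8% and 25.9%, near the 23.0% and 22.4% of all tested genes, and their median log2 fold change was -0.02. Large falls nonetheless occurred there. ARHGEF19, 23 rows from *mir34a*, had 10, 0, 0 and 3 counts in *miR-34a-/-* and 55, 67, 138 and 76 in wild-type libraries (-4.86 ± 0.41 SE, adjusted p = 1.6e-10), and NDRG3, 4 rows from SULF2, had 94, 80, 63 and 130 in *miR-34a-/-* and 591, 749, 848 and 507 in wild-type libraries (-3.10 ± 0.08 SE, adjusted p = 5.0e-21).

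**Figure D4:**
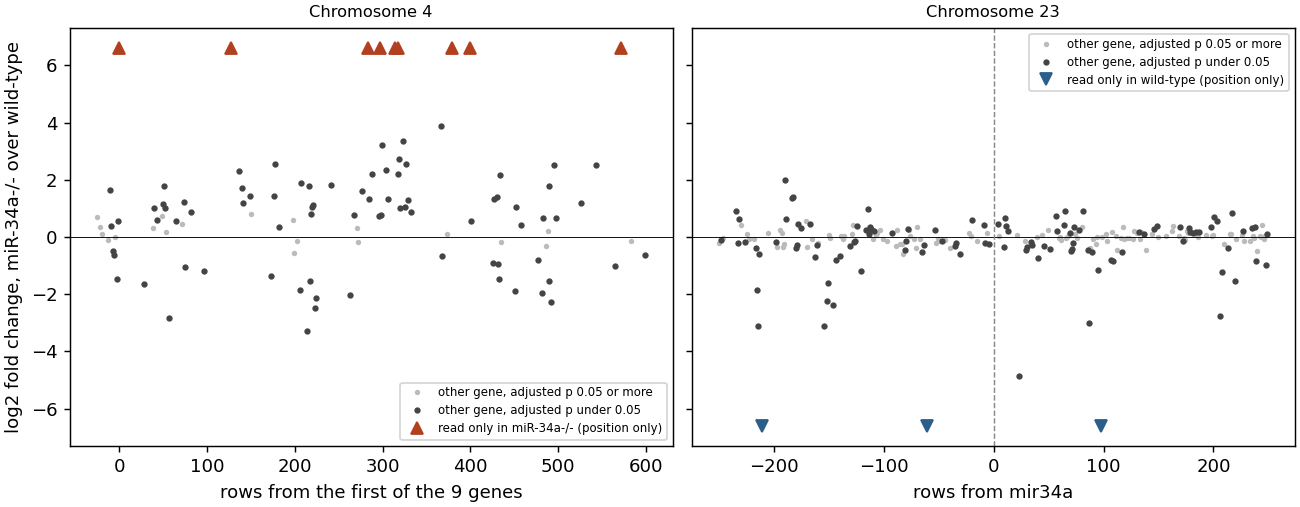
Log2 fold change of *miR-34a-/-* over wild-type for the other tested genes, by their distance in rows from the first of the 9 genes on chromosome 4 (left) and from *mir34a* on chromosome 23 (right). Dark points are genes with an adjusted p under 0.05 in edgeR's test, and triangles mark only the position of the genes read in 1 genotype, with no value on the vertical axis. On chromosome 4 more dark points lie above than below 0 (51 against 21 between the first and last triangle), and on chromosome 23 most points lie near 0 with single large falls such as ARHGEF19 at -4.86.

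Cytoskeletal and neuronal genes formed another group among those read only in wild-type. The gene *gabrb1* on chromosome 13 encodes a subunit of the GABA A receptor, the inhibitory chloride channel of neurons. It had 0, 0, 0 and 1 counts in *miR-34a-/-* and 37, 50, 36 and 18 in wild-type libraries, 165-fold lower, with a wide interval of 29.2 to 6571 that rests on that single count. Of the 4 other GABA A receptor subunits tested, 2 were called lower and none higher. GABRA6 on chromosome 21 had 3, 3, 2 and 5 counts in *miR-34a-/-* and 9, 13, 20 and 11 in wild-type libraries (-2.21 ± 0.39 SE, adjusted p = 3.6e-05 in edgeR). Another GABRA6 row, on chromosome 14, was too low to be tested, with 1, 1, 2 and 5 counts in *miR-34a-/-* and 1, 0, 0 and 0 in wild-type libraries. The other gene called lower, *gabrp*, fell by less (-0.85 ± 0.30 SE, adjusted p = 0.021 in edgeR, up to 0.11 over the alternatives). The subunit gene *gabrr2b*, too low to be tested, went the other way, with 11, 8, 5 and 7 counts in *miR-34a-/-* and 0, 3, 1 and 0 in wild-type libraries. The gene *cald1b* on chromosome 25 encodes caldesmon, which binds actin and myosin, and had 0, 1, 0 and 1 counts in *miR-34a-/-* and 29, 27, 30 and 12 in wild-type libraries. Its copy *cald1a* on chromosome 4 did not pass the test (0.36 ± 0.29 SE, adjusted p = 0.33). FSCN2 on chromosome 3, named for a fascin that bundles actin in photoreceptors of mammals, had 0, 1, 1 and 1 counts in *miR-34a-/-* and 13, 24, 19 and 13 in wild-type libraries. A second row of that name on chromosome 12 had 0, 3, 1 and 1 counts in *miR-34a-/-* and 1, 5, 0 and 2 in wild-type libraries, and FSCN1 was slightly lower (-0.23 ± 0.04 SE, adjusted p = 8.7e-05). The gene *palm3* on chromosome 6, of the membrane-bound paralemmins, had 1, 2, 1 and 3 counts in *miR-34a-/-* and 27, 16, 31 and 24 in wild-type libraries.

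The last 3 symbols completed the wild-type set. TKT on chromosome 11 is named for transketolase, an enzyme of the pentose phosphate pathway, and had 1, 2, 0 and 3 counts in *miR-34a-/-* and 40, 40, 27 and 25 in wild-type libraries, 25.8-fold lower (interval 11.5 to 71.5). The related TKTL2 row on chromosome 23 did not pass the test, with 318 ± 5.33 CPM in *miR-34a-/-* and 333 ± 20.6 CPM in wild-type embryos (SD, n = 4 each, adjusted p = 0.22). DNAJB5 on chromosome 5, a co-chaperone of the heat shock protein Hsp70, had 2, 1, 2 and 0 counts in *miR-34a-/-* and 10, 22, 16 and 15 in wild-type libraries, and TMEM145 on chromosome 16, a predicted membrane protein, had 1, 2, 0 and 2 in *miR-34a-/-* and 20, 17, 22 and 12 in wild-type libraries. Of the unnamed genes, si:dkey-11e6.6 on chromosome 6 (18, 40, 14 and 13 counts in wild-type) and ENSDARG00000102282, not placed (19, 19, 23 and 25), had no count in any *miR-34a-/-* library and were at least 6.06-fold and 6.46-fold lower.

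By family and tissue, the named genes of both directions were mixed, and 6 of the 20 symbol families examined held a member. These families rest on symbol patterns, so relatives here are genes that match the same list and need not be of common descent. The patterns left out *tmprss5* from the proteases and *ifit9*, *ifi44c1* and *ifi44c2* from the immune genes. The families of *spata6l* and *slc5a2* are large, and the other members tested were called at 45.9% (33 higher and 12 lower of 98 genes with sperm, cilia or coiled-coil symbols) and 46.4% (62 higher and 62 lower of 267 transporters). The C-type lectins and mannose receptors had 5 others tested, of which 3 were called higher and 1 lower, and the neurotransmitter receptors 18, of which 2 were called higher and 5 lower. Over the 6 families, 223 of 476 tested relatives were called, 46.8%, which is near the 45.4% of all tested genes. The largest changes among relatives in these 6 families that are not neighbours, besides CCDC134, were *slc22a7b.1* (-4.08 ± 0.58 SE, adjusted p = 1.9e-06), the interleukin receptor gene *il13ra2* (-4.06 ± 0.33 SE, adjusted p = 1.0e-10) and the MHC class II gene *mhc2dbb* (3.08 ± 0.51 SE, adjusted p = 1.8e-05). Each of the testis, muscle and lens marker lists stayed below the median tested gene in summed level. The 3 testis markers found summed to 4.27 to 5.06 CPM in *miR-34a-/-* and 3.52 to 4.90 CPM in wild-type, the 3 muscle markers to 3.66 to 6.88 CPM in *miR-34a-/-* and 3.19 to 6.84 CPM in wild-type, and the 3 lens markers to 1.1 to 1.91 CPM in *miR-34a-/-* and 2.02 to 3.35 CPM in wild-type. The 3 gut markers found, of which *ela2* was at 0, summed to 4.54 to 9.52 CPM in *miR-34a-/-* and 14.0 to 23.6 CPM in wild-type, and the only 1 tested was called lower. The 4 liver markers, of which *fabp10a* was at 0, were read far more, at 216 to 234 CPM in *miR-34a-/-* and 287 to 381 CPM in wild-type, and both of those tested were called lower. These lists were chosen for tissues that form later, so the reads do not show that liver or gut cells were present. The part of the listed markers in the genes read in 1 genotype was not tested.

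Neighbouring genes, which the rule did not use, are counted here beside all tested genes, with no test of the difference. Within 5 rows of the placed genes read only in *miR-34a-/-*, 42 of 100 tested neighbours were called higher and 19 lower, 42.0% and 19.0%, beside 23.0% and 22.4% of all tested genes. Without chromosome 4 these were 32 and 18 of 88, 36.4% and 20.5%. Within 5 rows of the genes read only in wild-type, 10 of 66 tested neighbours were called higher and 27 lower, 15.2% and 40.9%. Counting 1 row on each side gave 15 higher and 1 lower of 23 around the 30 genes, but 4 higher and 2 lower of only 11 around the 19 genes, where the direction did not hold. The largest rises were *tmtopsb*, an opsin gene 3 rows from *adipoqa*, with 50, 46, 36 and 55 counts in *miR-34a-/-* and 1, 3, 4 and 6 in wild-type libraries (3.48 ± 0.33 SE, adjusted p = 1.7e-09), and *ch25h*, cholesterol 25-hydroxylase, in the row next to *ifit9*, with 37, 39, 32 and 49 in *miR-34a-/-* and 3, 4, 0 and 5 in wild-type libraries (3.44 ± 0.37 SE, adjusted p = 2.0e-08). Neither exceeded 6 counts in a wild-type library. Also higher were si:dkey-202c14.3 beside *fam20a* (2.84 ± 0.30 SE, adjusted p = 1.8e-08) and the G protein subunit gene *gng2*, 5 rows from *gabrb1* and opposite to it (2.82 ± 0.37 SE, adjusted p = 5.3e-07). The use of strand in counting is not given in the sources used here, so reads of overlapping neighbours cannot be told apart.

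**Figure D5:**
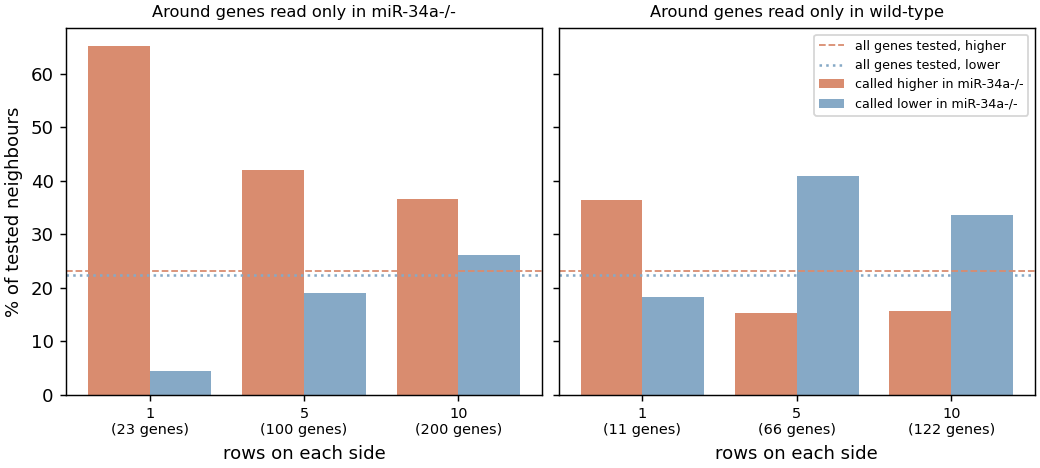
Share of tested neighbours called higher (left bar) and lower (right bar) in *miR-34a-/-* within 1, 5 and 10 rows of the genes read only in *miR-34a-/-* (left panel) and only in wild-type (right panel), with the number of tested neighbours in brackets. The dashed and dotted lines are the shares over all tested genes, 23.0% higher and 22.4% lower, and at 5 rows the taller bar is higher (42.0%) on the left and lower (40.9%) on the right.

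The rule asks for reads in every library of one genotype, so the spread among those libraries is given as a description. The chi-square per degree of freedom over the 4 libraries, about 1 under counting noise alone, had a median of 0.822 for the 30 genes and 1.26 for the 19 genes, beside 1.16 and 1.13 for other tested genes in the same ranges of counts. This measure grows with the number of counts, and it was highest for *spata6l* at 7.39 and si:dkey-11e6.6 at 5.66. By the coefficient of variation, *spata6l* varied by 15.1%, against 49.3% for si:dkey-11e6.6, 47.5% for si:ch211-235m3.10 and 44.5% for *phka1b*. Of the 30 genes, 12 had their highest CPM in *miR-34a-/-* replicate 4, the largest library, 7 in replicate 3, 6 in replicate 2 and 5 in replicate 1. Of the 19 genes, 6 had it in wild-type replicate 1, 6 in replicate 2, 5 in replicate 4 and 2 in replicate 3.

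Membership at the edges of the rule turned on few counts, and for some genes on 1. By the lowest count in the genotype with reads, *adck1*, *phka1b* and si:ch211-80h18.1 were just inside it. The last had 14, 16, 10 and 20 counts in *miR-34a-/-* and 3, 2, 3 and 2 in wild-type libraries. For the other direction these were DNAJB5, at 10 counts in its lowest wild-type library, and TMEM145 and *cald1b*, at 12. On the other limit, *lamb2l*, TKT, *palm3*, si:dkey-182g1.8 and si:dkey-205h13.2 each had 3 counts in a *miR-34a-/-* library. A further 24 genes missed the first direction and 15 the second by 1 count. Among the best read of these were si:dkeyp-104f11.1, with 32, 39, 27 and 55 counts in *miR-34a-/-* and 3, 4, 4 and 1 in wild-type libraries, and si:dkey-117a16.1, and in the other direction si:ch211-257p13.3, with 3, 1, 0 and 4 counts in *miR-34a-/-* and 69, 100, 79 and 80 in wild-type libraries, the peroxisomal thiolase gene *acaa1* and the myelin gene *plp1b*.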

How the data were processed

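Whole *miR-34a-/-* and wild-type embryos at 8 hpf were compared, with 4 libraries each. The authors deposited raw counts of reads per Ensembl gene for 32520 genes. The submitters' processing notes name Trim Galore 0.4.4, STAR 2.7.8 and danRer11, and the counting program, annotation release and use of strand are not given in the sources used here. The members, gene lists and tests were chosen with earlier results of these data known, and the close relatives after the values were seen.

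Genotypes were compared in edgeR 4.0.16 (R 4.3.3) with TMM normalization, filterByExpr, the quasi-likelihood test and p-values adjusted by Benjamini-Hochberg across 13842 genes, called at an adjusted p under 0.05. CPM use the TMM library sizes. On simulated data with 13620 genes tested, 200 genes were changed by fixed folds, none of them among the least read genes. There the test recovered 98.5% of changed genes with 2.96% false calls. Far more genes were called in the real data, 45.4% of those tested, so these figures are not error rates of the real calls. A fold against a genotype with 0 counts used the value of 3 counts in its smallest library, and other ratios an exact Clopper-Pearson 95% interval. Labels number the libraries as replicates, and p-values measure the spread between these.

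Symbols came from a table of gene names and, for 8 members, from a supplementary table of the study used for names only. Names in capitals are human forms. Rows were placed on chromosomes by RefSeq symbols (GRCz12tu, 17801 rows), by at least 8 of the 10 nearest placed rows, and within chromosomes their order followed RefSeq positions (Spearman's rho at least 0.992 over 10711 genes, as a description). The 4 members not placed have no neighbours in the counts. The 8 members of each direction farthest above the floor and all with a symbol were given by library. Of the neighbours within 5 rows and the relatives in fixed symbol families, the 10 with the largest change past the test were named, and other relatives and neighbours named were chosen after their values were seen. Python 3.11.15 and matplotlib 3.10.9 were used for tables and figures. Not every gene just outside the rule is reported here.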

Additional observations from a re-analysis of the deposited data

Results flagged for a closer look

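Of 119 groups of 4 libraries among most of the genes named here, leaving out those at the floor, 5 held a library far from the other 3, 4.20%, where chance gives about 1 in 20. No gene read in only 1 genotype was among them. Such genes gave 49 of the 119 groups. The rule sets a lower limit on every library of these groups, which restricts low outlying libraries. Their absence is therefore partly set by the rule, and the share of 4.20% is not directly comparable with chance. In *miR-34a-/-* replicate 3, *casp6b.1* stood at 4.40 CPM with the others at 3.46 to 3.55 CPM (gap over range 0.903) and *gng2* at 4.88 CPM with the others at 2.45 to 2.82 CPM (0.850). In wild-type libraries, *gng2* stood apart in replicate 4 at 0.977 CPM with the others at 0.264 to 0.342 CPM (0.890), *slc22a7b.1* in replicate 3 at 1.93 CPM with the others at 1.03 to 1.13 CPM (0.884), and *mhc2dbb* in replicate 2 at 0.566 CPM with the others at 0 to 0.0879 CPM (0.845).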

How the results depend on the processing

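How many genes were read in only 1 genotype depended on the limits of the rule. With no count allowed in the genotype without reads there were 6 genes read only in *miR-34a-/-* and 3 only in wild-type, with up to 5 counts allowed 69 and 45, and with at least 20 counts required in the other genotype 10 and 8. Scaling the counts to the smallest library gave 20 and 24, of which 16 and 16 were among the 30 and 19. The larger number was then in wild-type, so the excess of genes read only in *miR-34a-/-* did not hold. Leaving out 1 library, which leaves fewer libraries to meet the limits, gave 30 to 40 and 20 to 35 genes, with 35 read only in wild-type without *miR-34a-/-* replicate 1 and 30 without *miR-34a-/-* replicate 4.

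The genes called by edgeR numbered 3161 higher and 3121 lower with its RLE normalization in place of TMM, and 3551 and 3444 without the filter on low counts. They numbered 2714 and 2677 in DESeq2, and 2856 to 3058 and 2835 to 3019 in edgeR with a library left out. With a replicate block they were 3092 and 2990, with 57.2% of neighbours and 44.5% of family relatives called. The block changed none of these by over 1.5 times. The numbers do not pair the libraries, since the deviations of libraries with the same number correlated at -0.0322 to 0.00772, and 0 of 4 *miR-34a-/-* libraries correlated best with their own number. The share of neighbours called was 64.7% within 1 row and 57.5% within 10 rows, against 59.0% within 5. In DESeq2 the share of family relatives called was 23.5% (180 of 767), against 27.2% of all 19841 genes it tested and 36.8% of neighbours. DESeq2 tested more genes of low counts. The level relative to the floor moved by 0.792 to 1.23 times when a library was left out.

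Most of these genes lie near the floor of 3 counts, so their levels are imprecise, and a lack of reads does not show absence. Reads on near-identical copies and overlapping genes cannot be told apart in these counts.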
